A study of Homo sapiens with 6 samples.

Results

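The AP-1 transcription factors were followed in H2452 cells, an established human pleural mesothelioma line, after the tumour suppressor *NF2* had been targeted with CRISPR-Cas9. The set holds 10 genes, taken by symbol from the 58735 genes of the count and FPKM tables. They are *FOS*, *FOSB*, *FOSL1* and *FOSL2* (the FOS family), *JUN*, *JUNB* and *JUND* (the JUN family), *BATF3*, and the small MAF genes *MAFF* and *MAFK*. All 10 passed the filter on low counts and entered the test with 14179 genes.

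AP-1 is not one protein but a dimer of basic leucine zipper (bZIP) proteins, in which the zipper holds the partners together and the basic region contacts DNA. JUN proteins pair with themselves or with FOS proteins, whereas FOS proteins need a partner, and BATF3 pairs with JUN proteins. The small MAF proteins lack a transactivation domain and pair with each other or with the cap'n'collar and BACH proteins. *FOS* and *JUN* are classical immediate-early genes, induced by growth factor signalling through MAP kinases and by stress, and AP-1 sites lie beside TEAD sites in many enhancers that YAP uses.

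Both groups were H2452 cells carrying a lentiviral Cas9 and sgRNA construct with an mCherry marker, in which Cas9 was driven by the SFFV promoter and the sgRNA by the U6 promoter. The 3 sgCtrl libraries came from cells with a scrambled sgRNA (genotype WT) and the 3 sgNF2-1 libraries from cells with an sgRNA against *NF2* (genotype NF2-KO). No drug was given. The mCherry-positive cells were collected by sorting and are not described as a single clone, so a bulk value can mix cells with different edits. In bulk samples, fewer cells that express a gene and less RNA per cell cannot be told apart. The study's statistical methods call its replicates biological in general, but the labels do not say whether these libraries came from separate cultures, and the p-values measure only the spread between them, which may be technical.

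Between 14782423 and 17416463 reads were counted in each library. Levels compared between groups are given as CPM, the usual count per unit of library size, with library sizes scaled by edgeR's TMM factors. *NF2* itself had 73.7, 72.9 and 67.5 CPM in sgCtrl and 39.3, 52.0 and 41.4 CPM in sgNF2-1, so that 62.0% of the sgCtrl level remained and the groups did not overlap. Its log2 fold change was -0.69 (SE 0.10, adjusted p = 7.9e-06, edgeR's quasi-likelihood test with Benjamini-Hochberg adjustment over all tested genes). Counts over a whole gene do not show the reading frame of the edited transcripts. Of 9 mesothelial and mesothelioma markers, 8 were above 1 FPKM, with *UPK3B* below it, and their summed FPKM was 778.1 to 872.5 in sgCtrl and 735.9 to 896.9 in sgNF2-1. The single markers moved in both directions. In the same edgeR test 3 rose (*KRT7*, mean FPKM 54.6 to 124.5, *MSLN*, 13.5 to 21.1, and *KRT18*), 3 fell (*KRT19*, 229.8 to 118.9, *PDPN*, 17.4 to 7.11, and *WT1*, 2.31 to 1.11) and 3 did neither, and their part in the AP-1 differences was not tested. The summed FPKM of 3 leukocyte markers reached at most 0.14, with *PTPRC* at 0 in all 6 libraries. That of 2 lung carcinoma markers reached at most 0.19, with *NKX2-1* at 0 in all 6. The summed FPKM of 3 endothelial markers was 0.77 to 1.09 in sgCtrl and 0.26 to 0.45 in sgNF2-1. Of the 2 endothelial markers tested, *PECAM1* fell (log2 fold change -2.28, adjusted p = 1.7e-07 from edgeR) and *CDH5* did not pass. The mitochondrial share of counts was 2.65% to 3.69% in sgCtrl and 3.67% to 4.67% in sgNF2-1, and its part in the differences below was not tested.

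The AP-1 genes did not move together. At an adjusted p under 0.05, 4 of the 10 members rose in sgNF2-1 (*FOSL1*, *MAFF*, *BATF3* and *JUND*), where 17.7% of all tested genes did. A further 2 fell (*JUN* and *FOS*), where 16.6% of all tested genes did, and 4 did not pass in either direction (*FOSL2*, *FOSB*, *JUNB* and *MAFK*). Beyond a log2 fold change of 0.5 in addition, 3 members rose and 0 fell, against 8.42% and 9.32% of tested genes. The CPM of the groups did not overlap for 5 of the 10 members, a share near the 45.3% of all tested genes. The median log2 fold change was 0.09 over the members and -0.0025 over all tested genes. The FOS family, the JUN family and the small MAF pair each held members that changed and members that did not pass.

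**Figure D1:**
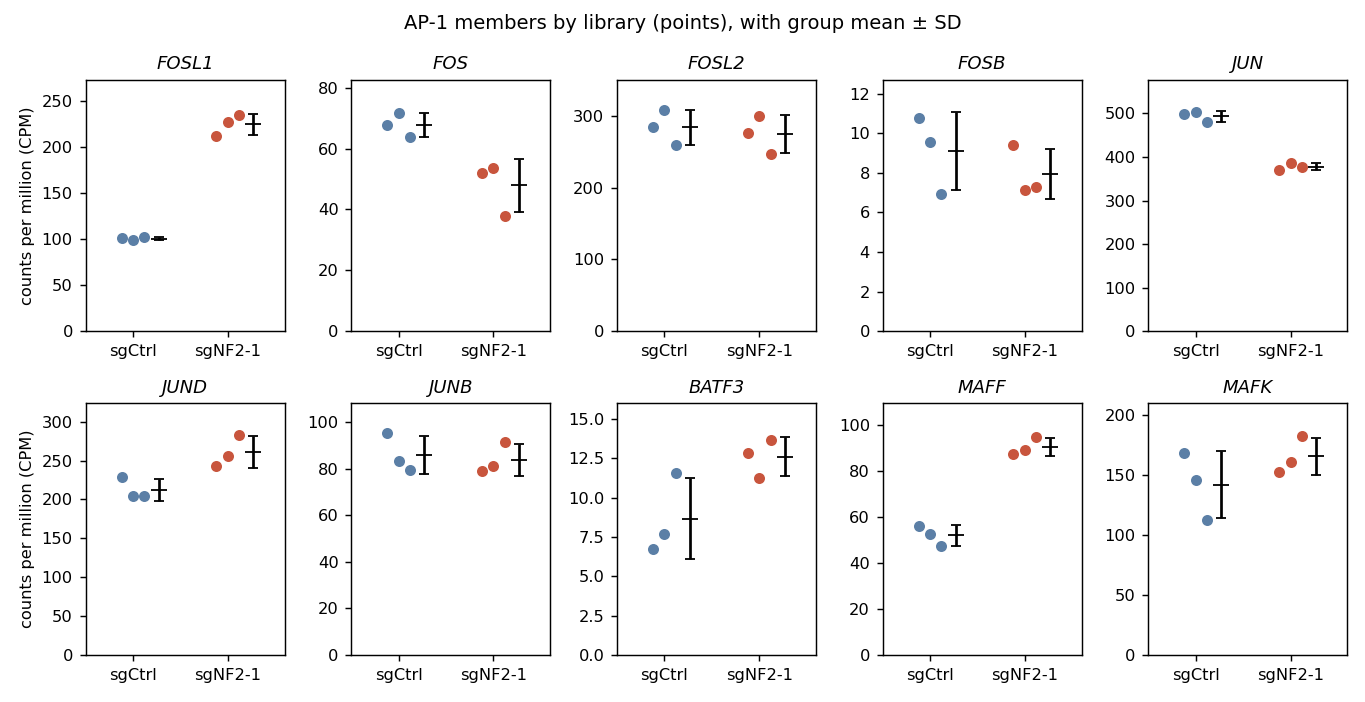
CPM of the 10 AP-1 members (vertical axes, each starting at 0) in 3 sgCtrl and 3 sgNF2-1 libraries, as 1 point per library with the group mean and SD in black. *FOSL1*, *MAFF* and *JUND* lie higher in sgNF2-1 without overlap, *JUN* and *FOS* lie lower without overlap, and the other 5 panels overlap.

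*FOSL1* had the largest change of the set. It encodes a FOS family protein that lacks the transactivation domain of FOS, and it lies at chr11:65892049-65900573 on the minus strand (GRCh38). Its level was 100.8, 98.9 and 102.4 CPM in the sgCtrl libraries and 212.6, 227.2 and 234.9 CPM in the sgNF2-1 libraries. The sgCtrl values were nearly identical, and every sgNF2-1 value was more than 100 CPM above them. The mean was 2.23-fold higher in sgNF2-1, with a log2 fold change of 1.16 (SE 0.080, 95% interval 0.99 to 1.32, adjusted p = 5.1e-11, edgeR's quasi-likelihood test with Benjamini-Hochberg adjustment). It ranked 232 of 14179 tested genes from the largest rise down. Only 4.75% of tested genes had a smaller spread within the groups on the log2 CPM scale. The deposited FPKM rose from 50.6 ± 0.807 (SD, n = 3) to 111.9 ± 5.64 (SD, n = 3).

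*FOS*, the founding member of the family, moved the other way. It had 67.8, 71.8 and 63.9 CPM in sgCtrl and 52.1, 53.7 and 37.9 CPM in sgNF2-1. The groups did not overlap, and sgNF2-1 replicate 3 was the lowest library. The mean was 29.4% lower, with a log2 fold change of -0.50 (SE 0.11, 95% interval -0.72 to -0.28, adjusted p = 8.0e-04, edgeR's quasi-likelihood test with Benjamini-Hochberg adjustment), which falls just short of the 0.5 limit. On the log2(FPKM + 1) scale limma gave a difference of -0.50 (adjusted p = 0.022), and this passed in every refit except those with no FPKM filter (adjusted p = 0.081), without sgCtrl replicate 1 (0.056) and without sgCtrl replicate 2 (0.071).

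*FOSL2*, which encodes the other FOS protein without that transactivation domain, was at a similar level in both groups. It had 283.7, 308.2 and 259.2 CPM in sgCtrl and 276.2, 299.5 and 247.4 CPM in sgNF2-1, with overlapping ranges. Its log2 fold change of -0.05 (95% interval -0.23 to 0.13, adjusted p = 0.71 from edgeR) changed sign when sgCtrl replicate 2 (0.015) or sgNF2-1 replicate 3 (0.025) was left out. *FOSB* had 104 to 170 counts per library and was the lowest member by FPKM. It had 10.8, 9.56 and 6.92 CPM in sgCtrl and 9.38, 7.13 and 7.30 CPM in sgNF2-1, and the ranges overlapped. Its log2 fold change was -0.19 (95% interval -0.56 to 0.17, adjusted p = 0.43 from edgeR). Leaving out 1 library moved it to -0.052 (sgCtrl replicate 1), -0.12 (sgNF2-1 replicate 2), -0.35 (sgCtrl replicate 3) or -0.33 (sgNF2-1 replicate 1), and it did not pass in any of these refits.

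*JUN*, which can form homodimers and is the partner of FOS in the classical AP-1 dimer, had the most counts of the set, 5358 to 8262 per library. It lies at chr1:58780788-58784327 on the minus strand and has a single exon in the annotation. Its level was 498.6, 503.3 and 479.8 CPM in sgCtrl and 369.7, 385.7 and 376.2 CPM in sgNF2-1. The groups were far apart relative to their spread, and 0.81% of tested genes had a smaller spread within the groups. The mean was 23.6% lower in sgNF2-1, with a log2 fold change of -0.39 (SE 0.078, 95% interval -0.55 to -0.23, adjusted p = 4.0e-04, edgeR's quasi-likelihood test with Benjamini-Hochberg adjustment). Over 12 alternative fits it stayed between -0.42 and -0.37 and passed in each.

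*JUND*, a JUN family gene that is expressed broadly without stimulation, rose by a small amount. It had 228.5, 204.6 and 204.1 CPM in sgCtrl and 242.8, 255.3 and 283.3 CPM in sgNF2-1. All sgNF2-1 libraries were above all sgCtrl libraries, with the narrowest gap between sgCtrl replicate 1 and sgNF2-1 replicate 1. The log2 fold change was 0.29 (SE 0.084, 95% interval 0.12 to 0.47, adjusted p = 0.0081, edgeR's quasi-likelihood test with Benjamini-Hochberg adjustment). It passed in all 12 alternative count fits, with a highest adjusted p of 0.048. On the log2(FPKM + 1) scale limma gave 0.28 (adjusted p = 0.041), which was above the threshold without an FPKM filter (0.10), with the replicate number as a block (0.059) and without any of 5 libraries (sgCtrl 2, 0.13; sgCtrl 3, 0.093; sgNF2-1 1, 0.051; sgNF2-1 2, 0.096; sgNF2-1 3, 0.088).

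*JUNB* is often induced together with *FOS*. It had 95.0, 83.1 and 79.2 CPM in sgCtrl and 78.8, 80.9 and 91.4 CPM in sgNF2-1. The ranges overlapped, and 1 library in each group lay above the rest. The log2 fold change was -0.04 (95% interval -0.22 to 0.15, adjusted p = 0.80 from edgeR), and it turned to 0.044 without sgCtrl replicate 1 and to 0.0095 without sgNF2-1 replicate 1. *JUNB* shares 259 exon bases (14.2% of its exons) with *HOOK2* on the opposite strand. The library kit does not mark strand and the strand setting of the counting is not given in the sources used here, so reads there cannot be assigned to 1 of the 2 genes.

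*BATF3* encodes a short bZIP protein known from dendritic cells and some lymphoma lines. It had 6.73, 7.68 and 11.6 CPM in sgCtrl and 12.8, 11.3 and 13.7 CPM in sgNF2-1. The ranges overlapped because sgCtrl replicate 3 was close to the sgNF2-1 libraries. Its log2 fold change of 0.54 (SE 0.17, 95% interval 0.19 to 0.90, adjusted p = 0.016, edgeR's quasi-likelihood test with Benjamini-Hochberg adjustment) rested on 106 to 226 counts per library. The adjusted p was above 0.05 without sgCtrl replicate 1 (0.39, adjusted p = 0.099), sgCtrl replicate 2 (0.46, adjusted p = 0.072), sgNF2-1 replicate 1 (0.53, adjusted p = 0.052) or sgNF2-1 replicate 3 (0.49, adjusted p = 0.066). Without sgCtrl replicate 3 the log2 fold change was 0.81. With limma on log2(FPKM + 1) the adjusted p was 0.067.

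*MAFF* was the second largest rise of the set. It encodes a small MAF protein and lies at chr22:38200767-38216511 on the plus strand. It had 56.0, 52.6 and 47.2 CPM in sgCtrl and 87.3, 89.0 and 94.7 CPM in sgNF2-1. The lowest sgNF2-1 library was well above the highest sgCtrl library. The mean was 1.74-fold higher, with a log2 fold change of 0.80 (SE 0.089, 95% interval 0.61 to 0.98, adjusted p = 1.5e-07, edgeR's quasi-likelihood test with Benjamini-Hochberg adjustment), and it ranked 586 of 14179. *MAFF* lies partly over *PLA2G6* on the opposite strand but shares 0 exon bases with it.

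*MAFK*, the other small MAF member, had 168.4, 145.6 and 112.4 CPM in sgCtrl and 153.0, 160.9 and 183.0 CPM in sgNF2-1. The sgCtrl libraries were widely spread and overlapped the sgNF2-1 libraries. The log2 fold change was 0.22 (SE 0.11, 95% interval -0.0014 to 0.44, adjusted p = 0.12 from edgeR). It passed when sgCtrl replicate 1 was left out (0.36, adjusted p = 0.013) and without the low-count filter (0.24, adjusted p = 0.046). It shrank to 0.079 (adjusted p = 0.56) without sgCtrl replicate 3, the lowest library, and to 0.15 (adjusted p = 0.37) without sgNF2-1 replicate 3, the highest. *MAFK* shares 809 exon bases (18.1% of its exons) with *TMEM184A* on the opposite strand, whose log2 fold change was 0.25 (adjusted p = 0.28 from edgeR).

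**Figure D2:**
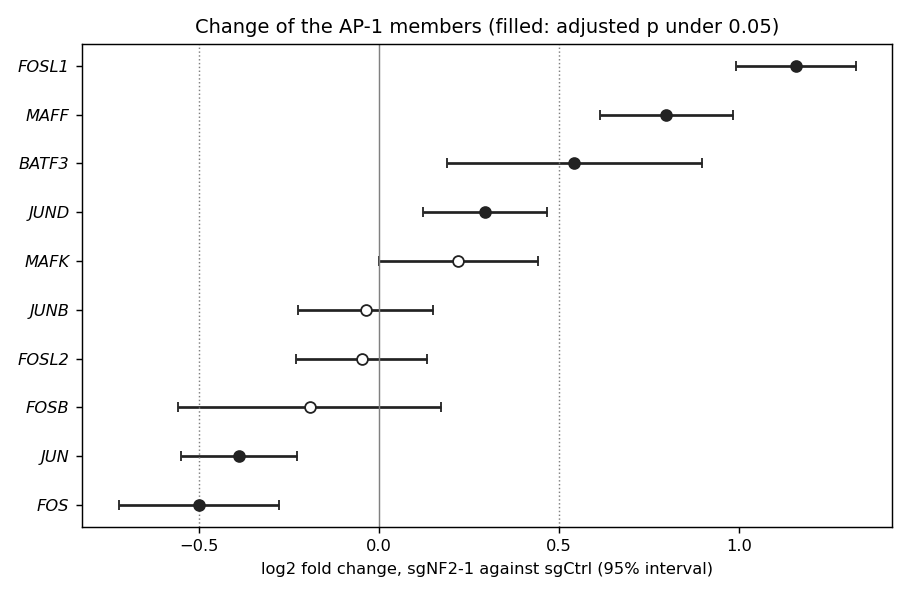
Log2 fold change of each AP-1 member, sgNF2-1 against sgCtrl (horizontal axis), as a point with its 95% interval, computed from the edgeR test. Filled points had an adjusted p under 0.05, dotted lines mark log2 fold changes of -0.5 and 0.5, and the members run from *FOS* at -0.50 to *FOSL1* at 1.16.

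For the 5 members whose groups did not overlap, a two-sided exact permutation test on CPM gave p = 0.10, below which a design with 3 libraries in each group cannot go.

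Levels of different members were compared per length, on the deposited FPKM. In sgCtrl the order was *JUN* (132.2 ± 3.53, SD, n = 3), *JUND* (108.0 ± 7.09), *FOSL1* (50.6 ± 0.807), *JUNB* (44.7 ± 4.31), *FOSL2* (37.6 ± 3.30), *MAFK* (30.2 ± 6.01), *FOS* (19.9 ± 1.18), *MAFF* (8.76 ± 0.755), *BATF3* (3.03 ± 0.898) and *FOSB* (1.55 ± 0.339). Of these neighbours, only *FOSL2* and *MAFK* had overlapping ranges. In sgNF2-1 *JUND* came first (131.3 ± 10.3), *FOSL1* next (111.9 ± 5.64) and *JUN* after it (100.1 ± 2.36), and these 3 did not overlap each other. They were followed by *JUNB* (43.2 ± 3.41), *FOSL2* (36.0 ± 3.51) and *MAFK* (34.9 ± 3.23), then *MAFF* (15.1 ± 0.634) and *FOS* (13.9 ± 2.54), whose ranges overlapped as did those of *FOSL2* and *MAFK*, and last *BATF3* (4.36 ± 0.414) and *FOSB* (1.34 ± 0.210). *FOSL1* thus stood below *JUN* in every sgCtrl library and above it in every sgNF2-1 library.

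**Figure D3:**
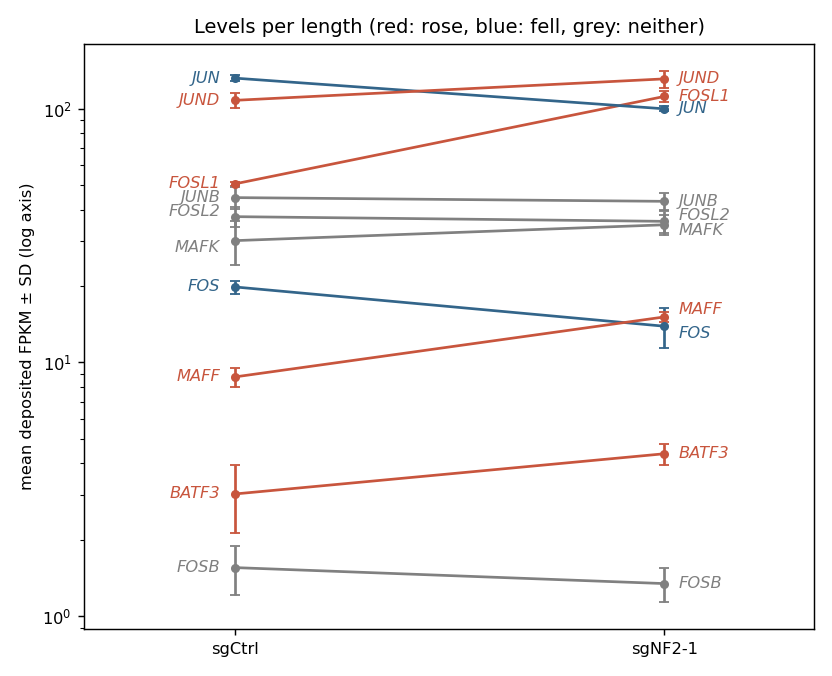
Mean deposited FPKM of each AP-1 member (log axis) in sgCtrl and sgNF2-1, with the SD over 3 libraries as bars. Red members rose, blue fell and grey did neither at an adjusted p under 0.05 in edgeR, and *FOSL1* crosses *JUN* between the groups.

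The make-up of the FOS family shifted towards *FOSL1*. The summed FPKM of its 4 genes was 109.9, 113.3 and 105.5 in sgCtrl and 158.6, 169.6 and 161.3 in sgNF2-1. *FOSL1* made up 46.1%, 43.9% and 48.7% of this sum in sgCtrl and 66.7%, 66.8% and 72.3% in sgNF2-1. The share of *FOS* went from 18.1% ± 0.434 (SD, n = 3) to 8.51% ± 1.48. The share of *FOSL2* was 34.3% ± 1.80 and 22.1% ± 1.71, although its own level did not pass the test. These 3 shares did not overlap between the groups. A share is bound to fall where another gene of the sum rises, so the shares add no test to those of the single genes.

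The summed FPKM of the JUN family overlapped between the groups, at 299.2, 282.5 and 273.1 in sgCtrl and 260.9, 273.6 and 289.2 in sgNF2-1. Within that sum, *JUN* held 44.6%, 47.8% and 47.0% in sgCtrl and 37.6%, 37.5% and 34.4% in sgNF2-1. The share of *JUND* was 37.9% ± 0.979 (SD, n = 3) in sgCtrl and 47.8% ± 1.31 in sgNF2-1. *JUNB* held 15.7% in both groups. The FPKM ratio of *FOSL1* to *JUN* was 0.379, 0.369 and 0.400 in sgCtrl and 1.08, 1.10 and 1.17 in sgNF2-1. That of *JUND* to *JUN* was 0.871, 0.772 and 0.808 in sgCtrl and 1.25, 1.26 and 1.43 in sgNF2-1. *MAFF* made up 22.7% ± 2.10 of the summed FPKM of *MAFF* and *MAFK* in sgCtrl and 30.3% ± 1.04 in sgNF2-1, without overlap. These values describe RNA, and the dimers formed by the proteins were not measured.

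**Figure D4:**
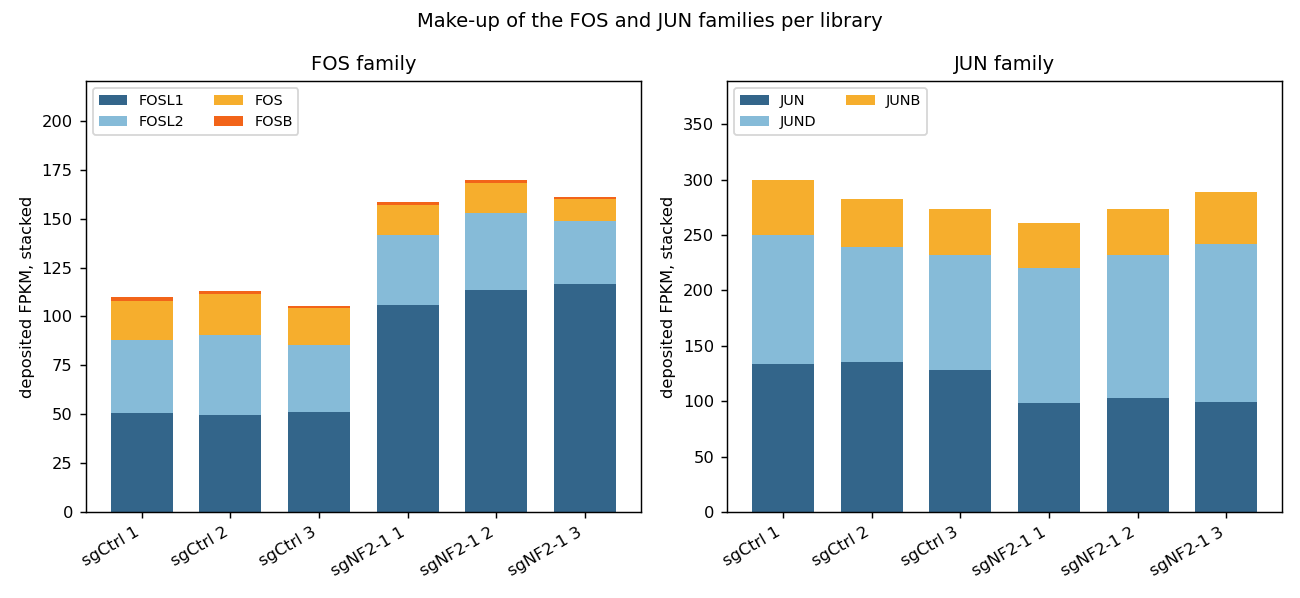
Deposited FPKM of the FOS family (left) and JUN family (right) in each of the 6 libraries, stacked by gene (vertical axes start at 0). The FOS family bars are higher in sgNF2-1 with a larger *FOSL1* part, and the JUN family bars overlap in height with a smaller *JUN* part in sgNF2-1.

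The starts of the member genes were read for binding site letters of the factors named above, since AP-1 genes are known to be regulated by AP-1 and CREB family proteins. RefSeq promoter windows (GRCh38.p14), of 250 bases before to 50 after a start, matched 7 members with 8 windows, *MAFF* having 2. *FOSL1*, *BATF3* and *MAFK* were without an entry. On both strands, the AP-1 site TGAGTCA was in 1 member (*FOSL2*, at 5 to 11 after the start) and in 4.95% of 35116 windows of all genes. The cyclic AMP response element TGACGTCA was in 2 members (*JUND* and *MAFF*) and in 1.85% of all windows. The TEAD site GGAATG (14% of all windows) and the CArG box, bound by serum response factor (1.29%), were in 0 member windows. Sites farther from the start than these windows reach were not read, so their absence from the genes cannot be inferred. Looser letters were chosen after the windows had been read. TGACNTCA, which includes TGACGTCA, was in 3 members and 7.72% of all windows, and its half-site TGACGT was in 5 members and 7.98%. The stretches of 30 bases around these matches are shown for the 4 members with a match that rose or fell and, beside *FOS*, for the 2 family members with the same half-site that did neither. Capitals mark the matched letters, and each stretch is written 5′ to 3′ on the gene's strand.
FOS: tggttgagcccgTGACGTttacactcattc
FOSB: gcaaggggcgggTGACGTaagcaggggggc
FOSL2: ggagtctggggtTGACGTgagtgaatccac
JUN: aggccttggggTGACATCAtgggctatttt
JUND: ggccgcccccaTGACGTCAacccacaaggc
MAFF: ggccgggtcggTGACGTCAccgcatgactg

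The match lies at -64 to -59 from the start in *FOS* (stretch chr14:75278752-75278781, plus strand), at -60 to -55 in *FOSB* (chr19:45467924-45467953, plus) and at -66 to -61 in *FOSL2* (chr2:28392780-28392809, plus). It lies at -67 to -60 in *JUN* (chr1:58784096-58784125, minus), at -200 to -193 in *JUND* (chr19:18281804-18281833, minus) and at -54 to -47 in *MAFF* (chr22:38201929-38201958, plus). *JUND* holds a further half-site at -87 to -82. In the longer gene models of the count annotation, all 30 bases of the *JUN* and *MAFF* stretches and 8 of 30 of the *FOS* and *FOSL2* stretches are exonic. The matches did not sort by direction of change. The half-site was in *JUND* and *MAFF*, which rose, in *FOS*, which fell, and in *FOSB* and *FOSL2*, which did not pass, while TGACNTCA was in *JUND*, *MAFF* and *JUN*. A match of letters is not a measured site, and binding was not measured in these libraries.

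Among all bZIP genes, by the transcription factor family given in the files, 41 of 48 were tested. Of these 41, 12 rose and 5 fell, and of the 31 outside the AP-1 members 8 rose and 3 fell (17.7% and 16.6% of all tested genes). *FOSL1* had the second largest rise, after *ATF3*, a stress-induced partner of JUN proteins with 10.9, 10.6 and 11.1 CPM in sgCtrl and 53.9, 59.0 and 51.3 CPM in sgNF2-1. The log2 fold change of *ATF3* was 2.33 (SE 0.11, adjusted p = 4.5e-14, edgeR's quasi-likelihood test with Benjamini-Hochberg adjustment). *MAFF* ranked 5, *BATF3* 11 and *JUND* 14 of the 41. At the other end, *JUN* ranked 36 and *FOS* 39. By mean FPKM over the 6 libraries, *JUND*, *JUN* and *FOSL1* ranked 3, 4 and 5 of the 41 genes, and *FOSB* ranked 35.

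**Figure D5:**
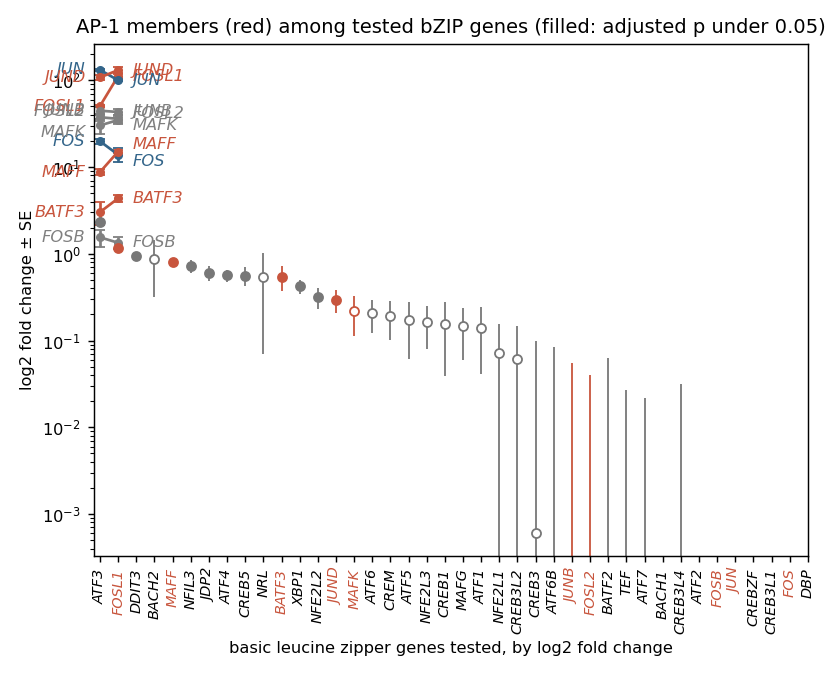
Log2 fold change with its SE of tested bZIP genes, ordered from higher to lower. The vertical axis is logarithmic, so only positive values show. The FPKM lines and labels of the members from the earlier figure of mean FPKM are drawn on the same axes and are not fold changes. A tested gene whose result is not reported here is left out. Fold change points of AP-1 members are red and filled points had an adjusted p under 0.05 in edgeR, with *FOSL1* beside *ATF3* at the left. Genes with a negative log2 fold change have no visible point, among them *FOS* beside *DBP* at the right.

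Of 14 tested bZIP genes listed as dimer partners, 4 rose, where 17.7% of all tested genes did. The median log2 fold change over the list was 0.16. The largest rise was that of *ATF3*.

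Of 27 tested kinases, phosphatases and other regulators upstream of AP-1, 5 rose and 4 fell, close to the 17.7% and 16.6% of all tested genes, with a median of 0.03. The 2 extremes were both phosphatases that act on ERK. *DUSP5*, which is nuclear, had 47.1, 40.9 and 37.6 CPM in sgCtrl and 79.6, 83.4 and 78.5 CPM in sgNF2-1 (log2 fold change 0.94, SE 0.095, adjusted p = 2.7e-08 from edgeR). *DUSP6*, which is cytoplasmic, had 53.7, 49.7 and 51.3 CPM in sgCtrl and 31.5, 33.8 and 30.3 CPM in sgNF2-1 (-0.69, SE 0.096, adjusted p = 3.9e-06 from edgeR). Neither overlapped between the groups, and they moved in opposite directions. The lower count of this list was 2 without sgCtrl replicate 2, sgNF2-1 replicate 2 or sgNF2-1 replicate 3, and without the low-count filter. It was 6 with edgeR scaled by library totals. It was 5 at 10 or more counts in all libraries, and with the replicate number as a block.

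Of 22 other immediate-early genes tested, 13 rose and 2 fell, against 17.7% and 16.6% of all tested genes, with a median log2 fold change of 0.42. *ATF3* is in this list too and had its largest rise. *NR4A2*, a nuclear receptor, had its largest fall, at 3.29 to 4.38 CPM in sgCtrl and 2.40 to 2.74 CPM in sgNF2-1 (log2 fold change -0.62, SE 0.24, adjusted p = 0.0495 from edgeR). The lower count was 1 with DESeq2, without the low-count filter, and in each refit that left out 1 library except that without sgCtrl replicate 3. *EGR1*, the other listed gene that fell, had a log2 fold change of -0.50 (SE 0.14, adjusted p = 0.0067 from edgeR). The AP-1 members are not in this list. Of those that are classical immediate-early genes, *FOS* and *JUN* fell and *FOSB* and *JUNB* did not pass. *FOSL1* and *MAFF* rose.

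Of 20 tested genes known as AP-1 targets in other cells, 5 rose and 7 fell, where 17.7% and 16.6% of all tested genes did, with a median of -0.07. *IL6*, an inflammatory cytokine, had 7.17, 8.10 and 9.29 CPM in sgCtrl and 21.0, 19.0 and 17.6 CPM in sgNF2-1 (log2 fold change 1.23, SE 0.14, adjusted p = 2.0e-07 from edgeR). *SPP1*, which encodes osteopontin, was low throughout, at 1.34 to 2.17 CPM in sgCtrl and 0.170 to 0.351 CPM in sgNF2-1 (log2 fold change -2.83, SE 0.47, adjusted p = 4.5e-05 from edgeR).

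Of the 6 YAP and TEAD genes, 1 rose and 2 fell, where 17.7% and 16.6% of all tested genes did. *TEAD4* had 36.2, 36.3 and 31.5 CPM in sgCtrl and 44.3, 43.3 and 49.9 CPM in sgNF2-1 (log2 fold change 0.40, SE 0.10, adjusted p = 0.0032 from edgeR). *TEAD2* was under 4 CPM in every library and fell (log2 fold change -1.05, SE 0.30, adjusted p = 0.0088 from edgeR). *WWTR1*, the other gene that fell, had a mean of 193.3 CPM in sgCtrl and 108.3 CPM in sgNF2-1, without overlap. Its log2 fold change was -0.84 (SE 0.079, adjusted p = 1.1e-08 from edgeR). Without sgNF2-1 replicate 2, 1 of the 6 genes was lower. With edgeR scaled by library totals, and with the replicate number as a block, 3 were.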

How the data were processed

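RNA was measured in H2452 cells, in 3 sgCtrl and 3 sgNF2-1 libraries grouped by their titles. The authors isolated total RNA, made libraries with a kit that does not mark strand, sequenced them as paired ends on a NovaSeq platform, and deposited the unnormalized number of reads counted on each gene, with a table of FPKM. The submitters' processing notes name HISAT2, StringTie 1.3.3b, featureCounts 1.5.0-p3 and hg38, without roles. In each library, the deposited FPKM values equal count divided by gene length and by one depth, for 100% of genes with at least 10 counts (tolerance 0.1%).

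Genes with few counts were removed by edgeR's filterByExpr (minimum count 10, minimum total 15). The rest were scaled by TMM and fitted with edgeR 4.0.16 (R 4.3.3) on all genes, by a quasi-likelihood test with Benjamini-Hochberg adjustment over 14179 genes. FPKM was tested with limma 3.58.1 on log2(FPKM + 1) for 13038 genes with a mean of at least 0.5. The scripts were tested on simulated data. The members and gene lists were chosen with earlier results of these data known, and the list of all bZIP genes was added after the files had been read. Named genes are all members, *NF2*, and from each list the largest rise and largest fall. Each of the latter needed an adjusted p under 0.05 in edgeR and a mean of at least 1 CPM. The single markers, *DBP*, *EGR1*, *WWTR1* and genes overlapping members were named after their values were seen.

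Alternatives were DESeq2 1.42.0, edgeR scaled by the size factors of DESeq2 or by totals, counts unfiltered or at 10 or more in all libraries, the replicate number as a block, refits without each of the 6 libraries, and other call rules. For limma they were a pseudocount of 0.1, the unfiltered table, the block and the same refits. Promoter windows are from RefSeq (GRCh38.p14). A planned comparison of the protein zippers was not run, and a result that the naming rule selects is not reported here.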

Additional observations from a re-analysis of the deposited data

How the results depend on the processing

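Under DESeq2, both other scalings, the stricter filter and the replicate block, 4 members rose and 2 fell as in the edgeR fit, and with no filter 5 rose, *MAFK* included. Requiring a log2 fold change over 0.5 as well left 0 lower members in the main edgeR fit, with adjusted or unadjusted p. *FOS*, at -0.4996 there, was beyond that limit with both other scalings (-0.5025 and -0.52), the stricter filter (-0.51) and the block (-0.51). It was also beyond it without sgCtrl replicate 1 (-0.50001) or 3 (-0.54) and without sgNF2-1 replicate 1 (-0.56) or 2 (-0.585). It was short of it with DESeq2, with no filter, and without sgCtrl replicate 2 or sgNF2-1 replicate 3. Over all genes that limit left 1194 higher and 1322 lower genes with the adjusted p, and 1308 and 1531 with the unadjusted p. Leaving out 1 library at a time moved the log2 fold change of *FOSL2* between -0.11 and 0.025 (0.015 without sgCtrl replicate 2) and that of *JUNB* between -0.10 and 0.044 (0.0095 without sgNF2-1 replicate 1). It moved the log2(FPKM + 1) difference of *FOSL2* between -0.13 and 0.011 (0.00034 without sgCtrl replicate 2) and that of *JUNB* between -0.11 and 0.028. *FOSL2* and *JUNB* did not pass in any of these refits. The number of members that rose was 3 without sgCtrl replicate 2, sgNF2-1 replicate 1 or sgNF2-1 replicate 3. Without sgCtrl replicate 1 it was 4, with *MAFK* in place of *BATF3*. *FOSL1*, *MAFF*, *JUN*, *FOS* and *JUND* kept their direction and passed in all 12 alternative count fits. No scaling moved the median of all genes beyond -0.04 on the log2 scale.

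Libraries with the same number did not deviate together (correlations -0.032, 0.057 and 0.050), so the numbers were not taken as pairs. With the replicate block, 2698 genes rose and 2501 fell. The cause of the differences between fits was not tested. With 3 libraries a group, no exact permutation test can go below 0.10, and *FOSB* and *BATF3* rest on 104 to 226 counts per library.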
